A study of Mus musculus with 20 samples.

Results

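Germline stem cells (GSC) were compared with ESC-like cells (ESC_like) that came from newborn testis, to ask which germ line transcripts both cell types carry and which only the former carry. The comparison uses the 3 GSC arrays and the 3 ESC_like arrays, 6 of the 20 arrays of the study, over all 18193 genes measured. The GSC were derived from testes of OG2 mice, B6;CBA animals carrying the Oct4-GFP transgene Tg[Pou5f1-EGFP]2Mnn/J, in which a Pou5f1 promoter drives the reporter. They were grown in a StemPro-based medium with 20 ng/ml EGF, 10 ng/ml bFGF, 10 ng/ml GDNF, beta-estradiol and leukemia inhibitory factor (LIF), on inactivated mouse embryonic fibroblasts (MEF), and the age of the donor mice was not given in the sources used here. The ESC_like cells came from testes of mice 0 to 2 days old, were supplied by another laboratory, and grew on MEF with LIF under ESC conditions. Their strain was not given in the sources used here. The other references are RW4 embryonic stem cells (ESC, 3 arrays, MEF feeder and LIF), neural stem cells derived from Olig2-GFP ESC (NSC, 3 arrays) and MEF of C3H mice (3 arrays), and 5 arrays of pluripotent cells derived from GSC (gPS) entered the fit but are not described here. Donor, medium and laboratory differ together between GSC and ESC_like cells, strain may differ too, and their effects cannot be told apart. Whether the arrays of both groups were processed together is not stated. The labels name no separate cultures or animals for the replicates. Every p-value and interval thus rests only on the spread between arrays of a group, which may be technical. That spread was pooled over all 6 groups, the gPS arrays included.

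Germline stem cells are the self-renewing spermatogonia of the testis. They respond to GDNF through the receptor pair Ret and Gfra1, and their progeny either renew or enter meiosis under retinoic acid. Germ cells also use proteins that most somatic cells lack. These include the piRNA pathway, which cleaves and silences transposon transcripts, the chromosome axis on which meiotic homologues pair, and RNA-binding proteins such as Ddx4 and Dazl that control translation. ESC-like cells arise in cultures of neonatal testis cells and resemble embryonic stem cells in morphology. In embryonic stem cells many germ line genes are known to be kept silent by promoter methylation and by Polycomb-type complexes that contain E2F6 or MGA.

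Array values are deposited log2 signals, so a difference of 1 is a 2-fold change, and array medians over all probe sets lay between 4.95 and 5.04. Pearson's r across genes was 0.991 to 0.993 between GSC arrays, 0.996 to 0.998 between ESC_like arrays and 0.897 to 0.903 between a GSC and an ESC_like array. Between ESC and ESC_like arrays it was 0.961 to 0.968. GSC replicate 1 had a larger 3' to 5' signal difference on the actin control, 1.25 log2 units against 0.51 and 0.49 in the other GSC arrays and 0.34 to 0.45 in the ESC_like arrays. Without that array the count of genes called was 3991 and the count of germ line genes lost, as defined next, was 51. Defining markers of each label were mostly present in the sample that bears it. Dazl, Ddx4, Gfra1, Ret, Etv5 and Sall4 were above 7 in all 3 GSC arrays, and Zbtb16 lay at 6.79, 7.16 and 7.61. Nanog, Tdgf1, Pou5f1, Sox2, Esrrb and Zfp42 were above 8 in every ESC_like array. Presence alone does not separate the samples. Etv5 was higher in ESC_like cells, Sall4 was level, and Pou5f1 and Sox2 were also above 8 in every GSC array.

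A gene was called at a limma adjusted p under 0.05 with a difference of at least 2-fold. Between GSC and ESC_like cells 4114 of 18193 genes were called, 22.6 percent. Of these, 2068 were higher in GSC (11.4 percent of all genes) and 2046 were lower (11.2 percent). The counts given for every gene list below stand beside these shares. The 11 germ line lists held 198 genes, of which 161 were measured here. Of the 161, 83 were higher in GSC, 18 were lower and 60 were not called, and their median difference was 1.19 log2 units, beside 0.09 over all genes. Because the list members were chosen with earlier results of these data known, these counts and the classes below are a description. The groups did not overlap for 132 of the 161, against 62.0 percent of all genes. These are bulk samples, in which fewer cells of a type and less RNA per cell cannot be told apart.

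To separate loss from reduction, a gene was taken as expressed in a group when all its arrays reached 7. By that measure 89 germ line genes were expressed in GSC. Of these, 49 (55.1 percent) were called lower in ESC_like cells with a mean there under 7 and are termed lost, against 8.98 percent of the 6767 genes of any kind expressed in GSC. Another 14 (15.7 percent, against 12.8 percent) were called lower with an ESC_like mean of 7 or more and are termed reduced. In all, 11 (12.4 percent, against 49.5 percent) were shared, meaning expressed in both groups with a 95% interval of the difference inside 2-fold either way. A further 7 were expressed in both and higher in ESC_like cells, and 8 were undecided because the interval was too wide or the fold too small. Outside these 89, 10 germ line genes reached 7 in ESC_like cells alone and were called, and most of the others did not reach 7 in all arrays of either group. The median lost gene stood at 9.90 in GSC, 5.24 in ESC_like cells and 4.73 in ESC, and 23 of the 49 had an ESC_like mean under 5, near the array median. Shared genes had a median of 8.69 in NSC and 7.50 in MEF, against 4.01 and 4.11 for lost genes. Most of the shared genes were thus not restricted to germ line and pluripotent cells. The level of 7 is a convention. Dmc1 (lowest GSC array 6.86), Zbtb16 (6.79), Meioc (6.72) and Hormad2 (6.70) fell just outside it, and Zfy2 (7.16), Etv5 (7.24), Pou3f1 (7.27) and Usp26 (7.31) just inside.

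**Figure D1:**
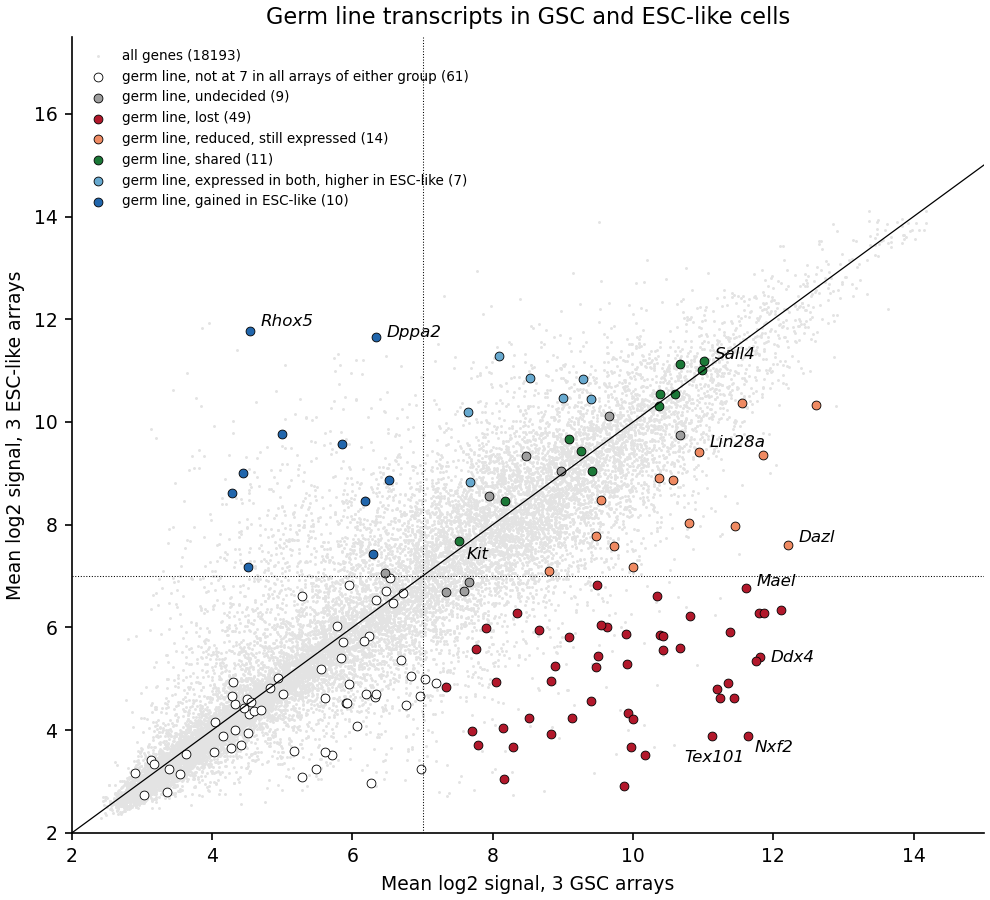
Mean log2 signal of each gene over the 3 GSC arrays (x axis) and the 3 ESC-like arrays (y axis), with germ line genes coloured by class and all other genes in grey. The 49 lost genes lie in the lower right, where the ESC-like mean is under 7, while the 11 shared genes lie along the diagonal.

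X-linked testis genes showed some of the widest differences. Nxf2, an mRNA export factor, was at 11.67, 11.70 and 11.53 in the GSC arrays and at 3.82, 3.87 and 3.95 in the ESC_like arrays, a difference of 7.75 ± 0.18 (SE, limma adjusted p = 6.01e-18). Where a group lies at or under the array median, as ESC_like cells do here, its signal is close to background and the log2 difference gives no exact fold of RNA. Every GSC array stood far above every ESC_like array, and the ESC arrays were at 3.53 to 3.89 (ESC_like minus ESC 0.22, limma adjusted p = 0.39). Tex101, a germ cell glycoprotein from the list of surface proteins, was at 10.98, 11.15 and 11.26 against 3.91, 3.88 and 3.84. Taf7l, a germ cell form of a general transcription factor subunit, differed by 6.82, Tktl1, a transketolase relative, by 6.62, and Tex11, a meiotic crossover protein, by 6.64. Of the 14 X-linked testis genes measured 9 were higher in GSC and none was lower. Mageb16 was the exception among those expressed. It was at 10.23, 10.53 and 10.34 in GSC and 10.25, 10.46 and 10.20 in ESC_like cells, at 10.52 to 10.56 in ESC, but at a mean of 3.01 in MEF. Usp26, a deubiquitinase, was lost as well, at 7.31 to 8.06 in GSC against 5.35 to 5.81 in ESC_like cells.

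Promoters of 6 germ line genes are shown because 16 of the 42 windows of lost germ line genes held 1 of 2 short strings that were searched for. The windows are the 250 bases upstream of the annotated start in RefSeq, build GRCm38.p6, and each is printed 5′ to 3′ on the strand of its gene, with the most upstream start used where a gene has several. Capitals mark CACGTG, a palindrome that basic helix-loop-helix proteins of the MYC and MAX family are known to bind, and GCGGGAA, or its reverse complement TTCCCGC, an E2F6-type site. The windows are chrX:134964755-134965004 (minus strand) for Nxf2, chr10:88459337-88459586 (plus strand) for Sycp3 and chr13:112652311-112652560 (minus strand) for Ddx4. Those of Tex12, Sohlh1 and Dazl are chr9:50561269-50561518, chr2:25847249-25847498 and chr17:50293621-50293870, all on the minus strand. Sycp3, Ddx4 and Tex12 are the 3 lost genes that hold both letter strings, Nxf2 and Sohlh1 hold several copies of CACGTG, and Dazl, a reduced gene, holds neither.
Nxf2: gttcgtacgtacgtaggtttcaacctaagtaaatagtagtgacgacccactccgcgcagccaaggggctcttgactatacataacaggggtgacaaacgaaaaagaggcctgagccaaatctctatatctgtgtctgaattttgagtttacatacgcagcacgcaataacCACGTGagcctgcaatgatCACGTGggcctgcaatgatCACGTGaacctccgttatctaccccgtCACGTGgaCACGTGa
Sycp3: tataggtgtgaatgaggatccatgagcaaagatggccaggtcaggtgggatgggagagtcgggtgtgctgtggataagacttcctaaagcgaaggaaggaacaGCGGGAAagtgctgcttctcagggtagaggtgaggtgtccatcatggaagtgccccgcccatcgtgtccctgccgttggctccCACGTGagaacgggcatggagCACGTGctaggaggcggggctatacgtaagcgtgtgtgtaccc
Ddx4: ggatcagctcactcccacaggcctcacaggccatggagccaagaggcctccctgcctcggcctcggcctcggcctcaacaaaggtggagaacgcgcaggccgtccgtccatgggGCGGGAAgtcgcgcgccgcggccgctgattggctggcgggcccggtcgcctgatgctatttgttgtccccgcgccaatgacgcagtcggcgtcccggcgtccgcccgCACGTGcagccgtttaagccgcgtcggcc
Tex12: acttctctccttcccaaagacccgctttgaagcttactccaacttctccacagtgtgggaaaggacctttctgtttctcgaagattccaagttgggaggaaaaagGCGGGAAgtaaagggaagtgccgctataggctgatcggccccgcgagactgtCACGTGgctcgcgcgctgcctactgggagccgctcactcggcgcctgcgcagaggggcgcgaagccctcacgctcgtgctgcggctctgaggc
Sohlh1: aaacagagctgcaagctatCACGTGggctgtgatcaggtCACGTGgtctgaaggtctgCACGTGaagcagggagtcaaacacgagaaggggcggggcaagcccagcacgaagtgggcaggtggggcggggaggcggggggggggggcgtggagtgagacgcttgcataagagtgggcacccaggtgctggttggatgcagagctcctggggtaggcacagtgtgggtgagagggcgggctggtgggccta
Dazl: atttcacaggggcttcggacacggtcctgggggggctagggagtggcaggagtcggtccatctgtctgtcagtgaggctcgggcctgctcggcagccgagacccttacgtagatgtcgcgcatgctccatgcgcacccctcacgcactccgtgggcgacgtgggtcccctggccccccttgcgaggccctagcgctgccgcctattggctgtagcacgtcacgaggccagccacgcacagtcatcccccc
In the Nxf2 window CACGTG began 7, 15, 42, 61 and 80 bases before the start, in that of Sycp3 at 43 and 64 bases, and in that of Ddx4 at 29 bases.

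Both strands were searched for both strings, and in the printed windows no match overlaps another. Among the 14452 measured genes with a window, 7.58 percent held CACGTG, 5.74 percent held the E2F6-type string and 12.9 percent held either. Of the 49 lost germ line genes 42 had a window, and 14 of those (33.3 percent) held CACGTG, 5 (11.9 percent) the E2F6-type string and 16 (38.1 percent) either. The 14 with CACGTG were Nxf2, Taf7l, Sycp3, Slc25a31, Mov10l1, Ddx4, Rbm46, Stag3, Tex12, Mael, Sycp1, Tdrd1, Sohlh1 and Pld6. None of the 11 windows of reduced genes and none of the 8 windows of shared germ line genes held either string. With 12.9 percent as the share of all genes, so few windows cannot show a lack of the strings. Germ line genes outside these classes held them too. CACGTG was in Hormad1, Boll, Lin28b, Piwil1, Tdrd9, Uty and Utp14b, and the E2F6-type string in Hormad1, Cstf2t, Meioc, Msh5, Prdm9 and Spaca1. Utp14b was higher in ESC_like cells (difference -1.14), so the strings were not confined to lost genes. Over all genes lost from GSC to ESC_like cells, germ line or not, CACGTG was in 12.9 percent of 503 windows, and in 10.2 percent of the 2803 windows of shared genes. All measured genes had a median of 13 CpG in the window and the reduced germ line genes a median of 12. These shares describe the letters in one window a gene and are not evidence of binding.

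The piRNA pathway was the germ line list with the most losses. Of 22 genes measured 18 were higher in GSC, 1 was lower and 3 were not called, with a median difference of 3.56, and 13 were lost. Piwil2, a Piwi protein that binds piRNAs, was at 11.63, 11.29 and 11.23 in GSC and 5.95, 5.86 and 5.94 in ESC_like cells, a difference of 5.47 ± 0.20 (SE, limma adjusted p = 4.84e-15). Mov10l1, the helicase that feeds precursors into the pathway, differed by 6.40 ± 0.10, Gtsf1, a small Piwi cofactor, by 5.50 and Tdrd1, a Tudor-domain scaffold, by 4.63. Both Piwil4, the nuclear Piwi protein of fetal germ cells, and Tex15, which acts with it in transposon silencing, were lost too, with differences of 5.11 and 5.60. Mael, needed for transposon silencing, was lost but not to the ESC level: the ESC_like arrays at 6.95, 6.71 and 6.63 stood above the ESC arrays at 5.52, 5.21 and 5.37. Rnf17 and Tdrd12, Tudor-domain proteins, were reduced by 1.70 each and remained above 6.8 in every ESC_like array. Partners of wider use differed from these. Wdr77, a cofactor of the arginine methyltransferase Prmt5, was shared (difference -0.04, 95% interval -0.28 to 0.19), and Prmt5 was higher in ESC_like cells (difference -1.06). Tdrd7 was lost on its chosen probe set, by 4.60, but its other probe set differed by 0.14.

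Of 15 germ cell RNA-binding proteins 10 were higher in GSC and none was lower, with a median difference of 2.07. Ddx4, the RNA helicase VASA, was at 11.95, 11.79 and 11.68 in GSC and 5.27, 5.63 and 5.36 in ESC_like cells, a difference of 6.39 ± 0.25 (SE, limma adjusted p = 2.27e-14). Its ESC_like mean was not called against ESC (difference -0.41, limma adjusted p = 0.24) and was below the MEF mean of 7.17. Rbm46 and Rbm44 were lost by 6.30 and 5.78, and Dnd1, which protects germ cell transcripts from miRNAs, by 3.72. Dazl, a translational regulator of germ cells, was reduced and not lost. It fell by 4.61 on the log2 scale, from 12.25, 12.13 and 12.25 in GSC to 7.34, 7.83 and 7.64 in ESC_like cells, and yet stayed above the ESC arrays at 5.06, 5.15 and 5.16. That excess over ESC was 2.48 (limma adjusted p = 8.9e-11). Lin28a, a regulator of let-7 processing, was reduced by 1.53, but its other probe set differed by -0.64, so the direction depends on the probe set. Elavl2 was reduced by 1.45, with probe sets from 0.07 to 1.77. Boll, a later member of the Dazl family, was under 5 in every array of both groups on its chosen probe set, while another of its probe sets differed by 3.04.

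Meiotic axis and recombination genes formed the next group, with 16 of 23 higher in GSC, none lower, and 9 lost. Sycp2, of the lateral element, was at 9.91, 10.06 and 9.65 in GSC and 2.96, 2.87 and 2.93 in ESC_like cells. Sycp3, its partner, was at 11.32, 11.46 and 11.28 in GSC and 4.87, 5.25 and 4.64 in ESC_like cells (difference 6.43 ± 0.23, SE, limma adjusted p = 3.68e-15). The ESC arrays were high for this gene. Sycp3 stood at 9.13, 9.53 and 9.34 in ESC, so the ESC_like minus ESC difference was -4.41 log2 units (limma adjusted p = 7.5e-12). Stag3, a meiotic cohesin subunit, was also below ESC (-1.12), as was the Y-linked Uba1y (-1.18), and these 3 were the lost genes called lower than ESC. Syce2, a central element protein, was reduced by 1.19 and kept a level of 10.32 to 10.39, and Psmc3ip, a recombination cofactor, was shared. Stra8, the retinoic acid target that licenses meiosis, was at 9.50, 9.56 and 9.56 in GSC and 5.96 to 6.19 in ESC_like cells, with a difference of 3.49. Dmc1, the meiotic strand-exchange recombinase, was at 6.86 to 7.25 against 4.75 to 5.17, and Spo11, which makes the initiating breaks, was at 4.98 to 5.29 against 3.52 to 3.62.

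**Figure D2:**
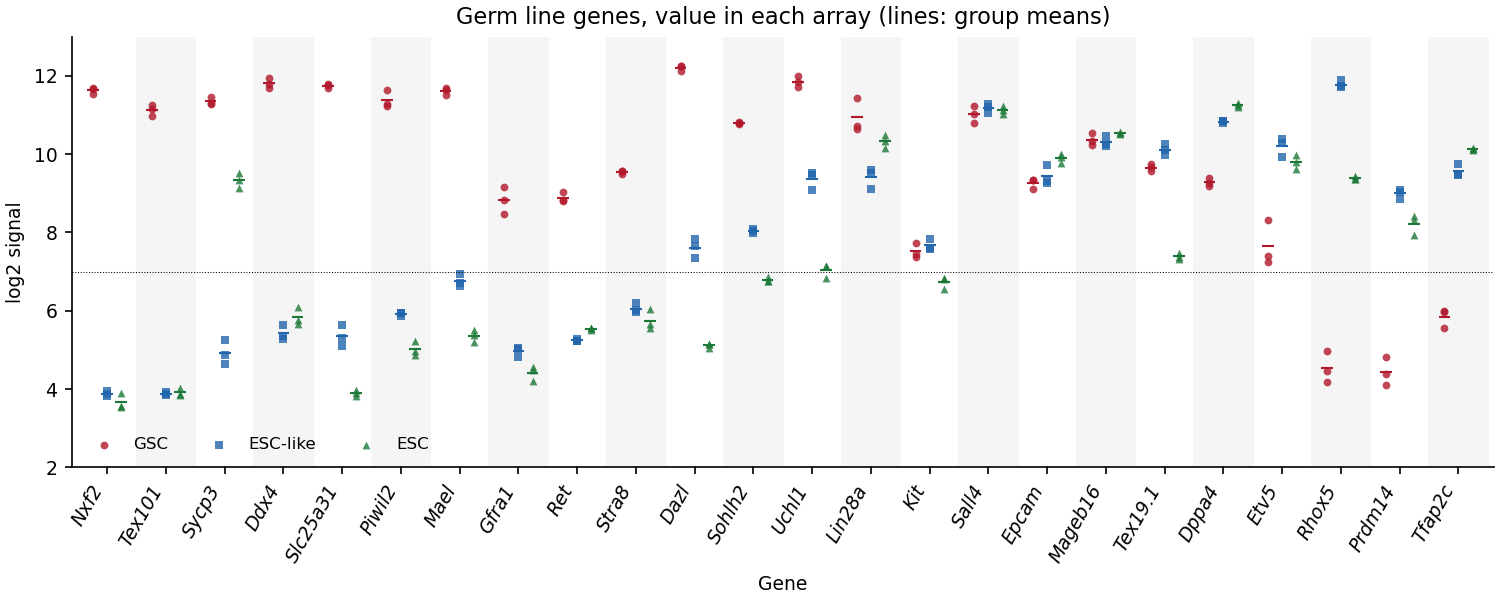
Log2 signal (y axis) of selected germ line genes in each GSC, ESC-like and ESC array, 3 arrays a group, with lines at the group means. Nxf2, Ddx4 and Gfra1 lie under 6 in the ESC-like and most ESC arrays, Dazl lies between 7.34 and 7.83 in ESC-like cells, above ESC, and Sall4 is level in all groups.

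Of the receptors and surface proteins 3 were lost. Of 19 measured, 5 were higher in GSC, 4 were lower and 10 were not called, with a median difference of -0.15. Over all genes 11.4 percent were higher in GSC and 11.2 percent lower. The GDNF receptors were among those lost. Gfra1 stood at 9.16, 8.84 and 8.48 in GSC and 4.81, 5.05 and 5.02 in ESC_like cells (difference 3.87 ± 0.15, SE), and Ret at 9.02, 8.83 and 8.81 against 5.22, 5.27 and 5.23 (3.65 ± 0.14). No array of either receptor overlapped between the groups, and the MEF mean of Gfra1 was 7.00. Uchl1, a deubiquitinase used as a spermatogonial marker, was reduced by 2.49 to 9.53, 9.08 and 9.48, still above the ESC arrays at 7.15, 7.13 and 6.83. Of the surface proteins 6 were shared, namely Adgra3, Cd24a, Kit, Epcam, Cd9 and Itga6. Kit, the stem cell factor receptor, was at 7.73, 7.38 and 7.46 against 7.58, 7.61 and 7.84, a difference of -0.15 with a 95% interval of -0.78 to 0.47. Epcam, an epithelial adhesion molecule, differed by -0.18 (interval -0.47 to 0.11) and was at means of 4.35 in NSC and 4.19 in MEF. Cdh1, or E-cadherin, and Dsg2, a desmosomal cadherin, were higher in ESC_like cells (differences -4.77 and -4.32). Thy1 (-2.34) and Itgb1 (-1.46) were higher there too, and both stood higher still in MEF, at 10.40 and 11.67.

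Among 21 transcription regulators of spermatogonia 12 were higher in GSC, 2 were lower and 7 were not called. The 5 lost were Sox3, which promotes the step to differentiating spermatogonia, by 4.05, Neurog3 by 4.09, Sohlh1 by 3.73, Stra8 as above, and Tsc22d3, a glucocorticoid-induced leucine zipper protein, by 4.87. For Tsc22d3 the probe sets disagreed, with differences from -0.064 to 4.90. Reduced but expressed were Dmrt1, a guardian of male germ cell identity (11.68, 11.21 and 11.46 against 7.97, 7.88 and 8.06), Sohlh2 (2.76), Foxo1 (2.14), Taf4b (1.71) and Id4 (1.08). Sohlh2 in ESC_like cells was above ESC by 1.24, whereas its partner Sohlh1 was not called (-0.31). Zbtb16, or PLZF, differed by 2.27 ± 0.18 and Bcl6b, a GDNF-induced repressor, by 1.49 ± 0.20, both without reaching 7 in all GSC arrays. Etv5, also induced by GDNF, was higher in ESC_like cells, at 8.32, 7.39 and 7.24 in GSC and 10.28, 9.93 and 10.40 in ESC_like cells. Sall4, which germ cells and pluripotent cells both need, was shared at 11.24, 10.78 and 11.03 against 11.20, 11.05 and 11.29 (difference -0.16, interval -0.46 to 0.13).

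**Figure D3:**
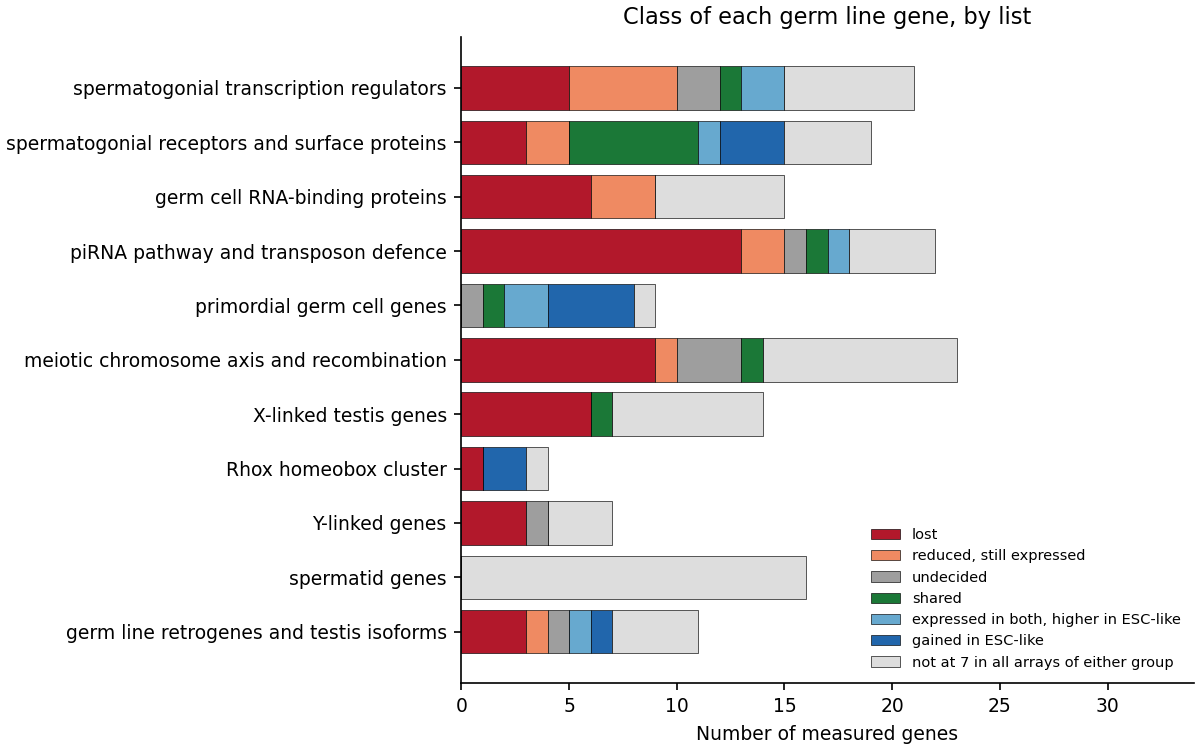
Number of measured genes (x axis) in each class for the 11 germ line lists (y axis), as stacked bars. Lost genes make up 13 of 22 in the piRNA list, 9 of 23 in the meiotic list and none of 9 in the primordial germ cell list, while shared genes are most frequent among surface proteins, at 6 of 19.

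Genes of primordial germ cells, the embryonic founders of the germ line, ran against the other lists. None of 9 was higher in GSC, 6 were lower, and the median difference was -2.30. Prdm14, a regulator of germ cell specification and of naive pluripotency, was at 4.11, 4.39 and 4.81 in GSC and 9.09, 8.86 and 9.04 in ESC_like cells. Dppa2 (difference -5.32), Tfap2c (-3.73) and Alpl (-2.30) also reached 7 in ESC_like cells alone. Ifitm1 was shared, at 10.25 to 10.51 against 10.46 to 10.60. Dppa3, or Stella, was at 8.44, 8.55 and 8.42 against 9.32, 9.45 and 9.22, without overlap, but its interval of -2.24 to 0.52 left it undecided. The interval uses the spread pooled over all 6 groups, so its width can come from arrays outside the comparison. Rhox5, an X-linked homeobox gene, showed the widest rise among germ line genes: it was at 4.18, 4.46 and 4.97 in GSC, 11.71, 11.88 and 11.74 in ESC_like cells and 9.37 to 9.43 in ESC. Of the other Rhox genes measured, Rhox6 (-2.67) and Rhox9 (-1.33) were also higher in ESC_like cells, and Rhox13, a testis member, was lost (3.26).

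Of 7 Y-linked genes 4 were higher in GSC, none was lower and 3 were lost. Uba1y, a ubiquitin-activating enzyme, was at 12.05, 12.10 and 12.16 in GSC and 6.38, 6.35 and 6.31 in ESC_like cells, Usp9y differed by 4.28 and Zfy2 by 2.49. Eif2s3y, a translation factor of male cells in general, was at 8.90, 9.26 and 8.74 against 9.03, 9.28 and 8.85. Its arrays overlapped between the groups, and it was undecided. The log2 of the summed signal of the Y-linked list was 12.44 to 12.49 in GSC, 9.59 to 9.88 in ESC_like cells and 9.51 to 9.60 in MEF. The part of feeder cells in the Y-linked signal was not tested. Genes of later spermatogenesis were near the array median in both. All 16 spermatid genes, the protamines Prm1 and Prm2 included, were under 7 in at least 1 array of each group, and 2 of the 16 were called, both higher in GSC, a share near the 11.4 percent of all genes. Spaca1, an acrosome protein, was higher in GSC (2.19) from 5.19 to 5.36 there.

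Many germ line genes have a broadly expressed paralogue, and 24 such pairs were set side by side. The germ line members include the Y-linked Usp9y, Kdm5d, Eif2s3y and Uty. Of 23 germ line members 16 were higher in GSC, 2 were lower and 5 were not called, with a median difference of 2.27. Of the 24 broadly expressed partners 2 were higher, 10 were lower and 12 were not called, with a median of -0.67. In 16 of the 17 pairs whose germ line member was higher in GSC, the partner was lower or not called, as were all but 11.4 percent of genes of any kind. Slc25a31, the germ cell ADP/ATP carrier, was at 11.77, 11.78 and 11.70 against 5.30, 5.63 and 5.11, whereas Slc25a5 was at 10.52 to 10.90 against 12.92 to 13.03 (differences 6.41 and -2.24). Opposite differences of the same kind were seen for Tktl1 and Tkt (6.62 and -1.72), Pdha2 and Pdha1, of pyruvate dehydrogenase (4.11 and -1.58), Stag3 and Stag2, of cohesin (5.08 and -1.12), and Piwil2 and Ago2, of the Argonaute family (5.47 and -2.63). Some copies known from later germ cells were not part of this pattern. Pgk2 stayed between 2.85 and 3.27 in all 6 arrays while Pgk1, the glycolytic enzyme, was lower in GSC (-3.75). Taf7 (1.75) and Cstf2 (1.22) were the partners higher in GSC, each with another probe set of opposite sign (-0.35 and -0.60). Nxf1 was not called (0.84), with another probe set at -1.29, and Usp9x had probe sets from -3.45 to 0.03.

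**Figure D4:**
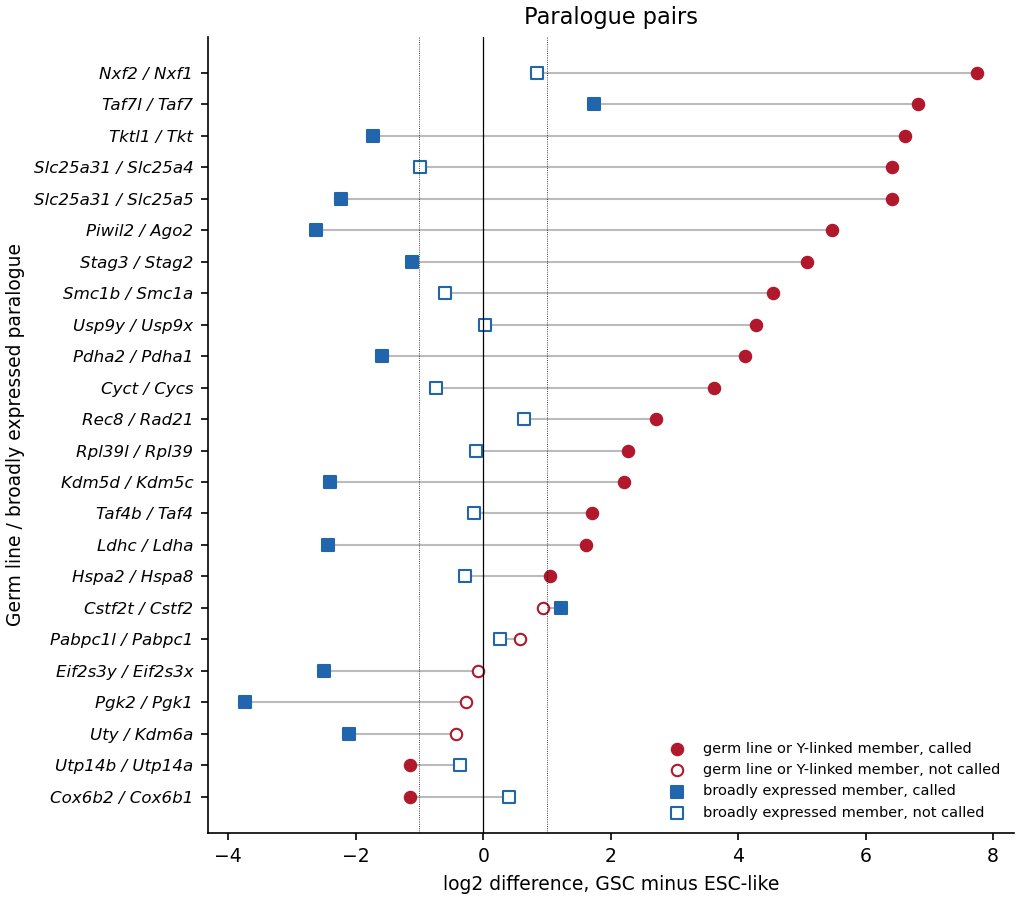
Log2 difference, GSC minus ESC-like (x axis), of the germ line or Y-linked member and its broadly expressed partner in each of 24 pairs (y axis). Germ line members lie mostly right of 0, up to 7.75 for Nxf2, and 10 of the 24 partners are called lower in GSC, down to -3.75 for Pgk1.

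Whether a germ line transcript still seen in ESC_like cells exceeded the level of embryonic stem cells was read from the second comparison, which shares the ESC_like arrays with the first. It called 1312 genes (7.21 percent), 930 higher in ESC_like cells (5.11 percent) and 382 lower (2.1 percent), with a median difference of -0.09. Of the 161 germ line genes 20 (12.4 percent) were higher than in ESC and 9 were lower. Of those 20, 12 were also called lower in ESC_like cells than in GSC, so their means lay between those of the other cell types. Of those 12, 3, namely Dazl, Uchl1 and Sohlh2, were at 7 or more in all ESC_like arrays. Others, such as Tktl1 (ESC_like mean 4.62) and Magea5 (4.64), were close to background there. Tex19.1, a protector of the germ line against transposons, was at 10.11, 9.98 and 10.25 in ESC_like cells, 7.47, 7.36 and 7.33 in ESC, and 9.66, 9.57 and 9.74 in GSC, and so was above ESC by 2.73. Cpeb1, a cytoplasmic polyadenylation protein, was at 6.26, 6.37 and 6.23 in ESC_like cells, 4.27 to 4.56 in ESC and 8.09 to 8.71 in GSC. Hormad1, a meiotic axis protein, was at 6.53 to 6.92 in ESC_like cells, 4.85 to 5.32 in ESC and 7.47 to 7.82 in GSC. Of the 20, 14 were also over 2-fold above the NSC and MEF means. Thy1, Ifitm3, Tdrd7, Cpeb1, Tktl1 and Pou3f1 were not.

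A wider set was drawn without any germ line list, by taking the 481 genes at 7 or more in all GSC arrays and with a GSC mean at least 4-fold above the NSC and MEF means. Their GSC level was the basis of the choice and also enters the difference from ESC_like cells, so the counts are a description. Of the 481, 235 (48.9 percent, against 8.98 percent of the 6767 genes expressed in GSC) were lost, 156 were reduced, 40 were shared and 16 were higher in ESC_like cells. Most losses fell on genes with a low ESC level, which follows in part from the definitions. A lost gene must have an ESC_like mean under 7, and ESC and ESC_like arrays correlated at 0.961 to 0.968 across genes. Among the 254 genes with an ESC mean under 7, 218 (85.8 percent) were lost and 3 were shared, and among the 227 with an ESC mean of 7 or more 17 were lost, 131 were reduced and 37 were shared. The smallest differences belonged to Mageb16, Mycn, Zmym1, Hook1 and Map4k1, although Hook1 differed by 1.02 when its probe sets were averaged. Mycn, a proto-oncogene of proliferating progenitors, was at 9.64, 8.99 and 9.41 against 9.41, 9.24 and 9.61, and Map4k1, a kinase otherwise known from blood cells, at 7.77 to 7.93 against 7.69 to 8.05. The largest were those of Nxf2, Tex101, Sycp2, Taf9b and Taf7l. Taf9b, a transcription factor subunit, differed by 6.87 on its chosen probe set but by 0.22 on its other one.

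Pluripotency genes were the counterpart of the losses. Of 28 measured none was higher in GSC, 23 were lower and 5 were not called, with a median difference of -3.24, and all 28 were at 7 or more in each ESC_like array. Nanog was at 3.88, 4.11 and 3.88 in GSC and 12.07, 11.80 and 11.93 in ESC_like cells, with no overlap and with the GSC arrays under the array median, and the co-receptor Tdgf1 differed by -7.98 as well. Pou5f1 was not absent from GSC. It was at 9.20, 9.15 and 9.53 against 11.98, 11.45 and 11.85, and Sox2 at 9.85, 9.69 and 9.66 against 11.86, 11.84 and 11.94. Trim71, a ubiquitin ligase of embryonic cells, was shared (difference 0.10, interval -0.18 to 0.39), with NSC and MEF means of 4.35 and 4.61. Zfp42 was lower in GSC than in ESC_like cells (-2.65) and lower in ESC_like cells than in ESC (-2.38).

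Counts in the lists that follow stand beside 11.4 percent of all genes higher in GSC and 11.2 percent lower. In the list of GDNF, FGF and EGF response genes 1 of 16 was higher in GSC, 8 were lower and 7 were not called. Dusp4 (-3.35), Spry4 (-3.17) and Dusp6 (-1.76), feedback inhibitors of the ERK pathway, were all lower in GSC, and Fos (-3.33) was at 11.46 to 11.65 in ESC_like cells against 6.93 to 7.22 in ESC. In the LIF and BMP list 1 of 14 was higher in GSC and 8 were lower. Stat3, which transmits the LIF signal, was the higher one (1.54), Socs3, its feedback inhibitor, and Lifr, the LIF receptor, were shared, and the ligand Bmp4 (-4.62) and its target Id2 (-4.19) were lower in GSC.

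DNA methylation and Polycomb genes moved both ways, with 7 of 27 higher in GSC, 8 lower and 12 not called. Tet1, which oxidises methylcytosine, was at 3.67, 4.09 and 3.57 in GSC and 10.49, 10.56 and 10.34 in ESC_like cells, and Tet2 (-3.24) and Dnmt3l, a cofactor of de novo methylation (-5.17), followed. Bmi1, of Polycomb complex PRC1, was higher in GSC at 10.19, 10.00 and 9.91 against 7.39, 7.66 and 7.45. Several further members were chosen after their values were seen: Ezh2 (-1.97) and Suz12 (-1.27), of PRC2, were lower in GSC, and Mga (1.73), E2f6 (1.71) and Dnmt1 (1.14) were higher. E2f6 had another probe set at 0.01. In ESC_like cells Mga was at 8.33 to 8.48, below the ESC arrays at 9.23 to 9.56, and E2f6 was at 8.21 to 8.37, above the ESC arrays at 7.08 to 7.19.

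Among imprinted genes, of 20 paternally expressed genes 2 were higher in GSC and 7 lower, and of 16 maternally expressed genes none was higher and 6 were lower. The 2 of 20 higher in GSC is close to the 11.4 percent of all genes, while 11.2 percent of all genes were lower. Igf2, a fetal growth factor, was shared, at 9.70, 9.72 and 9.59 against 9.71, 9.93 and 10.03, while the ESC arrays were at 7.04 to 7.25 and the MEF mean was 12.28. The paternally expressed Impact (-3.09), Mest (-2.58) and Peg3 (-2.10) and the maternally expressed Meg3 (-2.13) and Grb10 (-2.12) were lower in GSC. Of 26 cell cycle genes 1 was higher in GSC, 9 were lower and 16 were not called. Cyclin E1 (Ccne1, -3.31), Cdk6 (-3.02) and the nucleotide reductase subunit Rrm2 (-3.34) were lower in GSC, Rb1 was higher (1.84), and Cdk2 was shared.

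Marker genes of other cells were counted against the same shares of all genes, 11.4 percent higher in GSC and 11.2 percent lower. Of 23 fibroblast and feeder markers 1 was higher in GSC, 15 were lower and 7 were not called, and 18 were higher in ESC_like cells than in ESC. The log2 of their summed signal was 12.25 to 12.53 in GSC, 14.88 to 15.13 in ESC_like cells, 12.30 to 12.42 in ESC and 16.87 in MEF. Acta2, smooth muscle actin, was at 7.27, 6.99 and 7.65 in GSC, 12.39, 12.38 and 12.61 in ESC_like cells and a mean of 14.06 in MEF, and Lum was at means of 4.40, 4.16 and 6.56 in GSC, ESC_like cells and MEF. The part of feeder cells in the differences was not tested. Thy1, Itgb1, Ifitm3, Igf2, Meg3, Grb10 and Fos each had a MEF mean above the GSC mean. So did others, among them Pgk1 and, of the genes described further below, Slc2a1, Pfkp and Xist. Of the 10 macrophage markers 1 was higher in GSC (C1qb), 1 was lower (Cd68) and 8 were not called, with a summed log2 signal of 11.33 to 11.41 in GSC, 10.54 to 10.75 in ESC_like cells and 8.84 to 8.98 in ESC. C1qb was at 7.18 to 7.53 in GSC and Lyz2 at means of 10.96, 9.95 and 4.80 in GSC, ESC_like cells and ESC, whereas Ptprc was at means of 3.84 and 4.07 and Itgam at 3.59 and 3.44 in GSC and ESC_like cells. Of 14 Sertoli, Leydig and peritubular markers Wt1 was higher in GSC (1.61), Clu and Inhba were lower, and Fshr, Hsd3b1, Inha and Myh11 were under 4.5 on average in both groups. Of 11 neural and mesoderm markers 2 were lower in GSC (Tubb3 and Pax6) and 9 were not called. Of 14 extraembryonic markers Afp (4.46) and Foxa2 (1.63) were higher in GSC, 3 were lower, and the probe sets of Afp ran from -0.08 to 7.44.

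**Figure D5:**
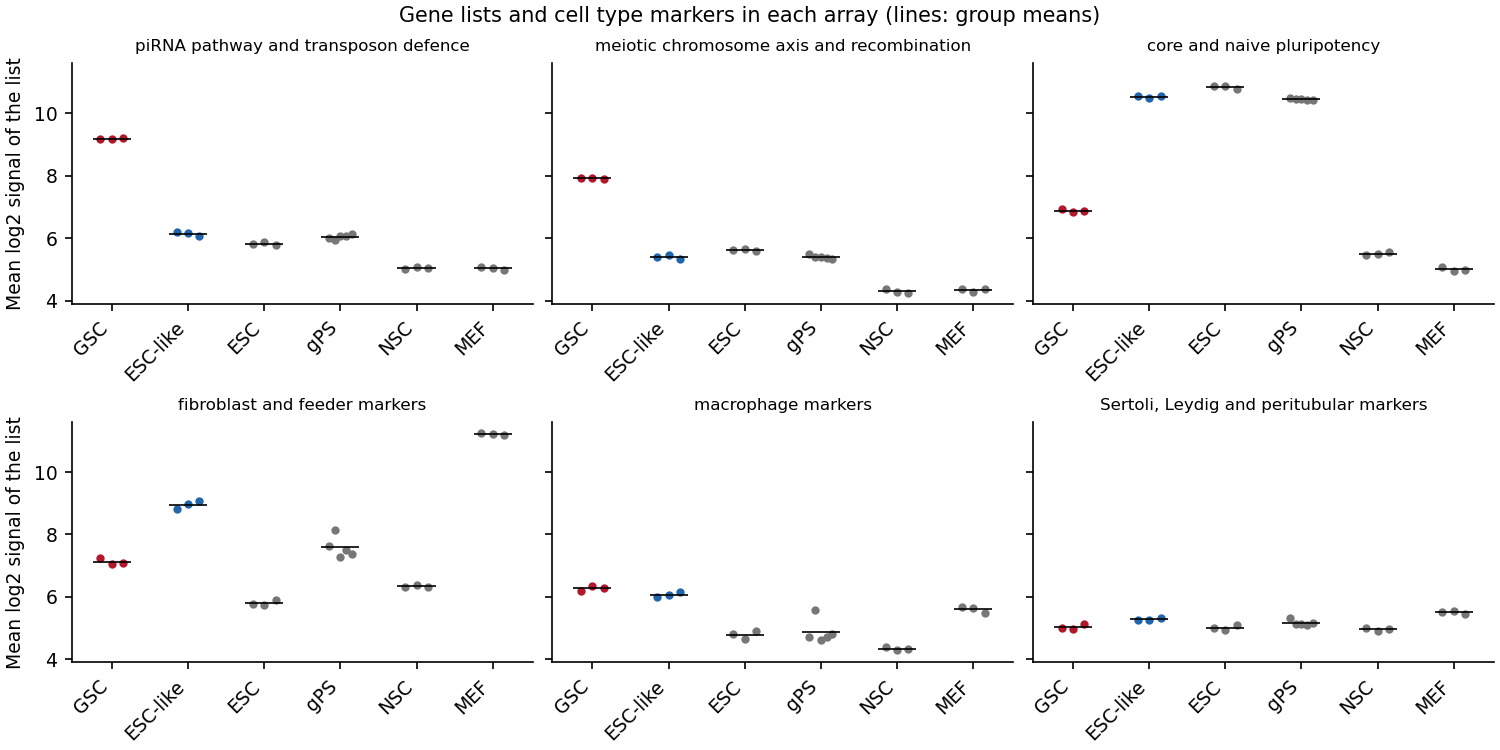
Mean log2 signal of 6 gene lists (y axis) in each array of the 6 groups (x axis), with lines at the group means. The piRNA list is at 9.16 to 9.21 in GSC and 6.08 to 6.18 in ESC-like cells, the pluripotency list at 6.83 to 6.92 and 10.49 to 10.56, and the fibroblast markers at 7.06 to 7.23 and 8.82 to 9.08, with MEF at 11.20 to 11.25.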

How the data were processed

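Total RNA was labelled with biotin and hybridised to Affymetrix arrays of 45101 probe sets, per the labels' protocols. The deposited files hold log2 signals. The submitters' processing notes name RMA without a version. RMA corrects background, equalises the distribution between arrays by quantile normalization and summarises probes. Joint processing of the 20 arrays is not stated. The number of arrays limits the precision. Without 64 control sets, 1 symbol was given for 34945 probe sets, several for 932 and none for 9160. Each gene was represented by its brightest probe set on average, which left 18193 genes, 9010 of them with several probe sets. The limma 3.58.1 model (R 4.3.3) had a mean for each of 6 groups over all 20 arrays, with Benjamini-Hochberg adjustment over all genes. The fit was tested on simulated data. SE is limma's moderated standard error and intervals are at 95%. Listed genes without a probe set were not analysed here.

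Genes named were a fixed set of candidates, up to 4 called and 2 uncalled members of each list, the germ line genes classed shared, reduced or higher in ESC_like cells, all paralogue pairs, and the 5 extremes at each end over all genes and over the genes high in GSC. Others were named after their values were seen. The lists and members were chosen with earlier results of these data known. Alternatives changed scaling, arrays fitted, weights, variance model, probe set choice, filters, thresholds, the expressed level and single arrays. Replicate numbers occur in both groups, but the deviations of same-numbered GSC and ESC_like arrays correlated at only -0.10, 0.19 and 0.04, so they were not taken as pairs. Promoter windows are from RefSeq (GRCm38.p6). Figures were drawn with matplotlib 3.10.9 in Python 3.11.15.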

Additional observations from a re-analysis of the deposited data

How the results depend on the processing

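A 4-fold minimum left 1232 genes called between GSC and ESC_like cells and 318 between ESC_like cells and ESC. Under the other settings the first count lay between 3309 and 4166 and the second between 981 and 1365. Germ line genes lost numbered 46 to 51 and those shared 9 to 16 over all settings, the highest shared count being that with an expressed level of 6. At that level 39 of the 49 lost genes were the same, and at a level of 8, 42 of 48. Leaving out single arrays gave 3991 to 4166 genes called, 49 to 51 lost and 10 shared, and 1273 to 1365 genes called between ESC_like cells and ESC. With a replicate block 4116 genes were called, 49 were lost, 12 were shared and 1314 were called between ESC_like cells and ESC, and no call of the 210 named genes changed. Averaging the probe sets of each gene, the sign turned for Boll (1.78), Egr3 (-1.59), Hook1 (1.02) and Usp9x (-1.96). Without the x_at, s_at and a_at probe sets, whose probes can match several transcripts, it turned for Fbln2 (0.12), Nxf1 (-1.29), Plagl1 (0.084) and Tsc22d3 (-0.064). The median difference over all genes was 0.04 after quantile normalization. Signals near the array median of about 5 are close to background, so differences between genes at that level are not resolved.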

Other observations

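Glucose uptake and glycolysis genes, chosen after their values were seen, were mostly lower in GSC than in ESC_like cells. Of 17 measured, 13 were lower, 2 were higher and 2 were not called, while 11.2 percent of all genes were lower and 11.4 percent higher. Their median difference was -2.43 beside 0.09 over all genes. The glucose transporter Slc2a1 was at 9.52, 9.73 and 9.74 in GSC and 12.31, 12.40 and 12.23 in ESC_like cells. Pfkp, a phosphofructokinase, was at 6.13, 5.75 and 6.08 against 11.04, 10.88 and 10.95, and Pfkl at 5.35, 5.24 and 5.64 against 9.66, 9.35 and 9.87. The muscle form Pfkm went the other way, with means of 9.03 and 7.83. None of the 17 was called by limma between ESC_like cells and ESC, where 7.21 percent of all genes were called.

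Another 6 germ line genes, outside the lists, also chosen after their values were seen, were all higher in GSC, with a median difference of 5.32. Over all genes 11.4 percent were higher in GSC. Brdt, a testis bromodomain protein, was at 8.86, 8.92 and 9.07 in GSC and 3.90, 3.74 and 3.93 in ESC_like cells, and Stk31, a kinase with a Tudor domain, at 11.06, 10.91 and 10.76 against 5.32, 5.34 and 5.12. Of 9 X-linked genes picked in the same way 6 were lower in GSC and 3 were not called, while 11.2 percent of all genes were lower. Xist, the RNA of X inactivation, was at means of 5.96 in GSC, 8.05 in ESC_like cells, 8.55 in ESC and 8.18 in MEF, and ESC_like cells were not called against ESC (difference -0.50).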
